A study of Mus musculus with 12 samples.

Results

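The 10 genes described here make, move and sense bile acids in the liver. They were chosen by symbol: 5 genes of synthesis and conjugation (Cyp7a1, Cyp7b1, Cyp8b1, Cyp27a1 and Baat), 2 transporters (Slc10a1 and Abcb11) and 3 genes of sensing (Nr0b2, Nr1h4 and Fgfr4). All 10 of 10 were measured in every library, among 16292 genes that any of the 4 deposited tables held. RNA was sequenced from perfused livers of female C57BL/6 mice in 4 groups of 3 libraries, wild type (WT) and Lcn2-/-, a constitutive null of the gene for lipocalin-2. Each genotype was injected intraperitoneally with mineral oil alone or with 0.8 ml/kg CCl4 dissolved in it. Injections began at 8 weeks of age and were given 2 times a week over 8 weeks. Livers were taken 48 h after the last injection. CCl4 is a solvent that pericentral hepatocytes convert to a radical through Cyp2e1, and repeated dosing scars the liver. Both control groups received the oil carrier, and uninjected mice are not analysed here. The replicates carry only a number, and nothing says that they are separate mice. The p-values therefore speak only for the spread among the 3 libraries of a group, part of which could be technical.

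Bile acids are made from cholesterol in hepatocytes. Cyp7a1 catalyses the rate-limiting step of the classic route, Cyp8b1 adds the hydroxyl group that makes cholic acid, and Cyp27a1 and Cyp7b1 serve the alternative route, while Baat joins the finished acid to taurine or glycine. Slc10a1 (NTCP) takes conjugated bile acids up from portal blood, and Abcb11 (BSEP) exports them into bile. When bile acids accumulate, the nuclear receptor Nr1h4 (FXR) induces Nr0b2 (SHP), a corepressor of Cyp7a1 and Cyp8b1, and the receptor kinase Fgfr4 carries the intestinal signal that does the same.

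The promoter windows of 3 genes that were lower on CCl4 in both genotypes are shown because they stand for the steps of 12-hydroxylation, export and repression. They are the 250 bases before the transcription start, from RefSeq on GRCm38.p6, on the strand of the gene. Of the 10 genes, 7 had a window, 8 windows in all because Slc10a1 had 2. The Cyp8b1 window lies at chr9:121916306-121916555 and the Abcb11 window at chr2:69342617-69342866, both on the minus strand, and the Nr0b2 window at chr4:133553126-133553375 on the plus strand. Capitals mark a match to a motif.
Cyp8b1: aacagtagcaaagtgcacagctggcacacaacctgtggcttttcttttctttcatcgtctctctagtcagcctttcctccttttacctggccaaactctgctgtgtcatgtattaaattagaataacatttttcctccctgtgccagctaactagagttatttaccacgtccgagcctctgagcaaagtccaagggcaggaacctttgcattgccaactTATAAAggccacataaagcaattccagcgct
Abcb11: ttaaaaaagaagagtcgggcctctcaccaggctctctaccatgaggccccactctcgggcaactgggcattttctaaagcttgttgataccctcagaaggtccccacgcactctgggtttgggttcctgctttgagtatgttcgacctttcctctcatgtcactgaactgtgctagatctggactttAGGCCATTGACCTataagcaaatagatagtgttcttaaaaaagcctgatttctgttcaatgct
Nr0b2: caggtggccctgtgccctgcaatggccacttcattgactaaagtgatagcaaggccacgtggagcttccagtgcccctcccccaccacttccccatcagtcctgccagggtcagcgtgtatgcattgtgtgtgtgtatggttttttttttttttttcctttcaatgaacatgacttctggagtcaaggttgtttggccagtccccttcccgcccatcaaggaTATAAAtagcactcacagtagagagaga
In Abcb11 the capitals are an inverted repeat of the receptor hexamer AGGTCA with 1 base between, AGGTCANTGACCT, the textbook site of FXR. The Abcb11 site read AGGCCATTGACCT at bases -63 to -51 from the start, with the substitution T4C counted from the 5′ end of the motif. Over 32536 distinct windows of the same length, 0.0799% held this motif with at most 1 base different and 0.00615% held it exactly. In Cyp8b1 and Nr0b2 the capitals are TATAAA, at bases -31 to -26 and -28 to -23. TATAAA occurred on either strand in 12.3% of all windows, and also in 1 of the 2 Slc10a1 windows. None of the 8 windows held the direct repeat AGGTCANAGGTCA with up to 1 base different, the LRH-1 site CAAGGTCA or the D-box TTATGTAA on either strand, which 0.489%, 1.33% and 0.811% of all windows held. Letters in a window are a description and not a measured site.

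The libraries held 7582962 to 14591487 reads in genes, so that 3 reads correspond to 0.206 to 0.396 CPM (reads of a gene per 1000000 reads in genes), and the lowest read count of any of the 10 genes in a library was 79. Lcn2 itself was at 345 to 1045 CPM in WT livers on oil and 405 to 557 CPM on CCl4, against 3.44 to 7.74 and 4.63 to 16.7 CPM in Lcn2-/- livers, lower in every Lcn2-/- library than in any WT library. Whether the remaining reads lie in the deleted part of the gene was not tested. Hepatocyte markers summed to between 75098 and 109354 CPM in the 12 libraries, and none of their 7 measured genes was at 0 in all libraries of a group. On CCl4 the median of all genes moved up as CPM, and rescaling with TMM, which assumes that most genes keep their level, shifted it by -0.25 on the log2 scale in WT and by -0.32 in Lcn2-/-. The split of all called genes changed with it, from 2931 higher and 504 lower to 1199 and 1080 in WT, and from 4631 and 705 to 1962 and 1672 in Lcn2-/-. Fold changes below are of CPM + 1, tested with limma and adjusted over all genes of a table, and called means a log2 fold change beyond 0.56 in either direction with an adjusted p of 0.05 or less. For CCl4 against oil, the value after TMM is given with each of the 10 genes. In whole liver, fewer cells of a type and less RNA per cell cannot be told apart.

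On CCl4, Cyp8b1, Cyp27a1, Cyp7b1, Slc10a1, Abcb11 and Nr0b2 were called lower in both genotypes, Baat in Lcn2-/- alone, and Cyp7a1 was called higher in WT. In WT, 6 of the 10 genes were called lower, where 3.18% of 15841 genes were, and 1 was called higher, where 18.5% were. In Lcn2-/-, 7 of the 10 were called lower and 0 higher, where 4.51% and 29.6% of 15645 genes were. The median log2 fold change of the 10 genes was -0.59 in WT and -0.96 in Lcn2-/-, beside medians of 0.27 and 0.35 over all genes. After TMM the counts were 7 lower and 0 higher in WT and 9 lower and 0 higher in Lcn2-/-, and edgeR on the recovered reads gave the same counts for these genes, with 1150 genes higher and 1076 lower in all in WT and 1981 and 1707 in Lcn2-/-. The values by library are drawn in the plot of the 10 genes.

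**Figure D1:**
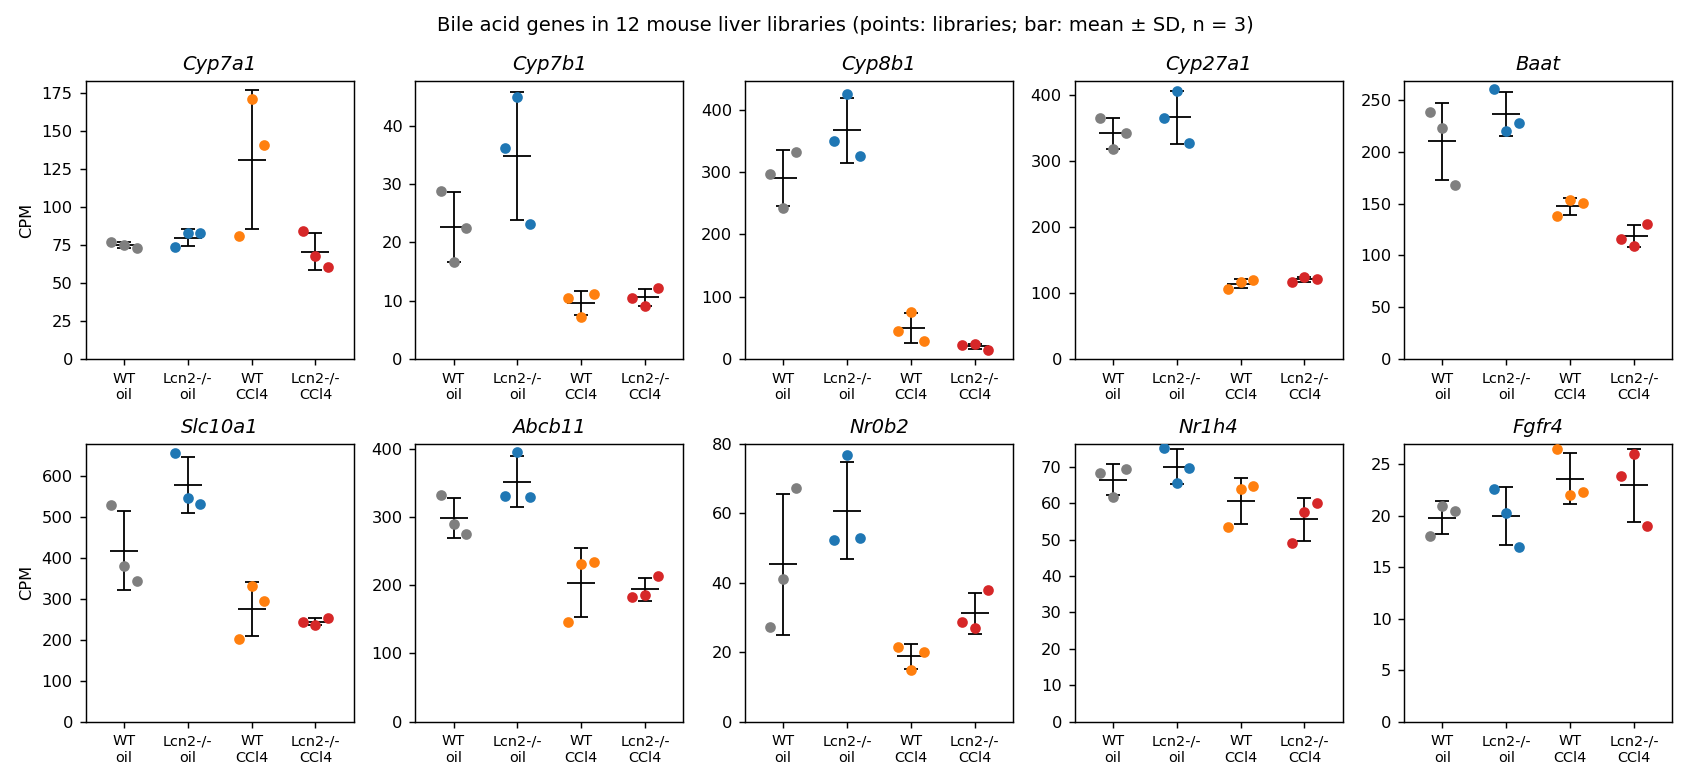
CPM of each of the 10 genes (vertical axis, from 0) in the 12 libraries, by group on the horizontal axis; points are libraries and the bar is the mean with its SD (n = 3). Cyp8b1 sits at 242 to 426 CPM on oil and at 15.0 to 75.8 CPM on CCl4, Cyp27a1 forms 2 levels that do not overlap, and for Cyp7a1 the 2 WT libraries on CCl4 at 171 and 141 CPM lie above all others.

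Cyp8b1 had the largest fall among the 10 genes. It is a gene of 1 exon at chr9:121914356-121916305. It measured 298, 242 and 332 CPM in WT livers on oil and 44.5, 75.8 and 29.7 CPM in WT livers on CCl4. In Lcn2-/- livers it measured 350, 426 and 326 CPM on oil and 22.2, 23.4 and 15.0 CPM on CCl4. Oil and CCl4 libraries stood far apart in both genotypes, and the 3 Lcn2-/- libraries on CCl4 lay below the 3 WT ones. The means fell 5.82-fold in WT, from 291 ± 45.3 to 50.0 ± 23.5 CPM (SD, n = 3), and 18.2-fold in Lcn2-/-, from 367 ± 52.1 to 20.2 ± 4.52 CPM. The log2 fold change was -2.61 (SE 0.23, adjusted p = 1.5e-06, limma) in WT and -4.14 (SE 0.15, adjusted p = 2.7e-09) in Lcn2-/-. After TMM it was -2.93 and -4.55.

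Cyp7a1, at chr4:6265612-6275633, moved differently. WT livers on oil gave 77.0, 74.9 and 73.0 CPM, and WT livers on CCl4 gave 81.2, 171 and 141 CPM. Lcn2-/- livers gave 73.5, 83.1 and 82.8 CPM on oil and 84.0, 67.6 and 60.4 CPM on CCl4. The WT libraries on CCl4 all lay above those on oil, but replicate 1 by little, and the Lcn2-/- groups overlapped. In WT the log2 fold change was 0.73 (SE 0.19, adjusted p = 0.012, limma), and in Lcn2-/- it was -0.18 (SE 0.12, adjusted p = 0.25). The WT call did not hold after TMM, where the value was 0.41 (adjusted p = 0.23), nor without WT replicate 2 on CCl4 (0.51, adjusted p = 0.067), without replicate 3 on CCl4 (0.65, adjusted p = 0.057) or without replicate 2 on oil (0.73, adjusted p = 0.051). After TMM the Lcn2-/- value was -0.61 and was called lower (adjusted p = 0.0022), so the Cyp7a1 call depends on the scaling in both genotypes.

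Set side by side within each library, Cyp8b1 and Cyp7a1 moved apart on CCl4. The ratio of Cyp8b1 to Cyp7a1 reads is free of the library scaling and is read here only for its change, since it is not corrected for length. It was 3.86, 3.24 and 4.55 in WT livers on oil and 0.548, 0.443 and 0.211 on CCl4. In Lcn2-/- livers it was 4.77, 5.12 and 3.93 on oil and 0.264, 0.346 and 0.248 on CCl4. All oil libraries lay above all CCl4 libraries. The log2 ratio changed by -3.37 in WT and by -4.02 in Lcn2-/- (exact two-sided permutation test, p = 0.1 in each, the smallest p that 3 against 3 libraries allow). Between the genotypes the ratios overlapped on oil (exact permutation p = 0.2) and on CCl4 (exact permutation p = 0.4).

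**Figure D2:**
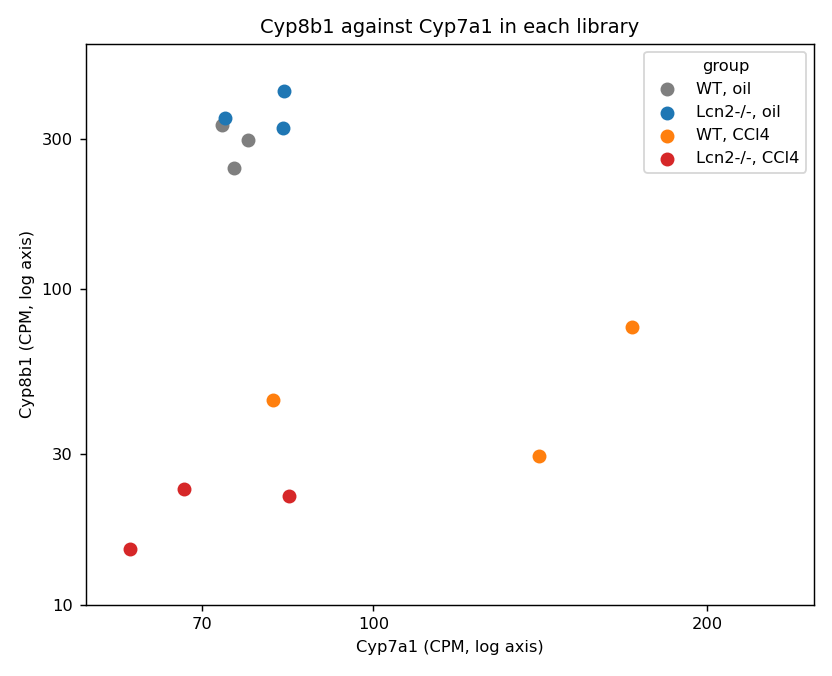
Cyp8b1 (vertical) against Cyp7a1 (horizontal) in CPM on log axes, 1 point per library, coloured by group. The 6 oil libraries lie together at 242 CPM of Cyp8b1 or more, the 3 Lcn2-/- libraries on CCl4 lie at 23.4 CPM or less, and the WT libraries on CCl4 spread from 81.2 to 171 CPM of Cyp7a1.

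Cyp27a1 and Cyp7b1, which serve the alternative route, were lower on CCl4 in both genotypes. Only their RNA was measured, and not the activity of the route. Cyp27a1, the sterol 27-hydroxylase of mitochondria at chr1:74713574-74737892, measured 365, 318 and 342 CPM in WT livers on oil and 106, 116 and 120 CPM on CCl4. Lcn2-/- livers gave 364, 406 and 327 CPM on oil and 117, 124 and 121 CPM on CCl4. The groups did not overlap, the spread on CCl4 was narrow, and the log2 fold changes were nearly equal, at -1.57 (SE 0.10, adjusted p = 6.3e-08, limma) in WT and -1.59 (SE 0.10, adjusted p = 1.1e-07) in Lcn2-/-. After TMM they were -1.90 and -2.01.

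Cyp7b1, the oxysterol 7-hydroxylase at chr3:18071950-18243338, was at lower levels. It measured 28.7, 16.7 and 22.4 CPM in WT livers on oil and 10.4, 7.20 and 11.1 CPM on CCl4, and 36.2, 44.9 and 23.2 CPM in Lcn2-/- livers on oil and 10.4, 9.16 and 12.1 CPM on CCl4. Oil values varied widely and all lay above the CCl4 values. The log2 fold change was -1.15 (SE 0.22, adjusted p = 0.0013, limma) in WT and -1.59 (SE 0.21, adjusted p = 8.8e-05) in Lcn2-/-, and -1.45 and -1.99 after TMM. An snRNA gene, Gm23686, lies within its span on the same strand.

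Baat, the conjugating enzyme at chr4:49489422-49506557, measured 238, 223 and 168 CPM in WT livers on oil and 138, 153 and 151 CPM on CCl4. Lcn2-/- livers gave 261, 220 and 228 CPM on oil and 116, 109 and 130 CPM on CCl4. Groups did not overlap in either genotype. The WT log2 fold change of -0.49 (SE 0.13, adjusted p = 0.0099, limma) passed the adjusted p but not the fold threshold, and it was called lower after TMM at -0.82. The Lcn2-/- value was -0.99 (SE 0.10, adjusted p = 9.5e-06), and -1.42 after TMM.

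Both transporters were lower on CCl4. Slc10a1, the uptake carrier at chr12:80953183-80968705, measured 529, 382 and 345 CPM in WT livers on oil and 202, 331 and 294 CPM on CCl4. It was at 657, 548 and 531 CPM in Lcn2-/- livers on oil and at 245, 235 and 253 CPM on CCl4. WT groups came close to each other, at 345 against 331 CPM, while the Lcn2-/- groups were well apart. The log2 fold change was -0.61 (SE 0.18, adjusted p = 0.019, limma) in WT and -1.23 (SE 0.10, adjusted p = 1.1e-06) in Lcn2-/-, and -0.93 and -1.66 after TMM.

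Abcb11, the export pump at chr2:69238282-69342616, measured 331, 290 and 274 CPM in WT livers on oil and 146, 231 and 234 CPM on CCl4. In Lcn2-/- livers it measured 330, 395 and 330 CPM on oil and 182, 186 and 213 CPM on CCl4. The groups did not overlap in either genotype. The log2 fold change was -0.58 (SE 0.16, adjusted p = 0.013, limma) in WT and -0.85 (SE 0.10, adjusted p = 3.4e-05) in Lcn2-/-, and -0.90 and -1.28 after TMM. An antisense gene, Gm13613, and a pseudogene, Gm13614, overlap Abcb11 on the other strand, and their reads could not be told apart if counting ignored strand.

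The WT calls of the transporters were the least stable among those lower on CCl4. WT replicate 1 on CCl4 had the lowest Slc10a1 and Abcb11, and it also had the highest Col1a1 of its group, 668 against 345 and 328 CPM, and the highest summed stellate cell markers, 1247 CPM against 726 and 760 CPM. Most of that sum was Col1a1 and Col3a1, at 668 and 389 CPM. Of the list, Lrat and Reln alone were highest in replicate 3, at 26.7 and 45.7 CPM against 18.7 and 37.1 CPM in replicate 1. Without WT replicate 1 on CCl4 the WT log2 fold changes were -0.40 for Slc10a1 (adjusted p = 0.12, limma) and -0.35 for Abcb11 (adjusted p = 0.054). Without WT replicate 1 on oil they were -0.43 (adjusted p = 0.091) and -0.50 (adjusted p = 0.055), and without replicate 2 on oil Slc10a1 was at -0.66 (adjusted p = 0.051). With all libraries both were called after TMM. The part of stellate cells in these values was not tested.

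Among the genes of sensing, Nr0b2 was called lower in both genotypes. Nr1h4 was not called as CPM but was called lower in Lcn2-/- after TMM, and Fgfr4 was called with neither scaling. Nr0b2, at chr4:133553376-133556536, measured 27.4, 41.1 and 67.4 CPM in WT livers on oil and 21.4, 14.9 and 20.1 CPM on CCl4. In Lcn2-/- livers it measured 52.4, 77.0 and 53.1 CPM on oil and 28.6, 27.1 and 37.9 CPM on CCl4. The WT oil libraries were spread more than any other group of this gene, yet all lay above the CCl4 ones. The log2 fold change was -1.15 (SE 0.24, adjusted p = 0.0030, limma) in WT and -0.93 (SE 0.17, adjusted p = 0.00071) in Lcn2-/-, and -1.47 and -1.35 after TMM.

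Nr1h4, at chr10:89454234-89533585, measured 68.1, 61.5 and 69.5 CPM in WT livers on oil, 53.4, 63.7 and 64.6 CPM in WT livers on CCl4, 75.0, 65.4 and 69.5 CPM in Lcn2-/- livers on oil, and 48.9, 57.6 and 60.0 CPM in Lcn2-/- livers on CCl4. Its log2 fold change was -0.13 in WT (95% interval -0.38 to 0.12) and -0.33 in Lcn2-/- (95% interval -0.57 to -0.09, adjusted p = 0.028, limma), under the fold threshold in both. After TMM it was -0.46 in WT, and -0.75 and called lower in Lcn2-/- (adjusted p = 2.0e-04). Both edgeR and DESeq2 also called Nr1h4 lower in Lcn2-/-, at -0.76 each.

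Fgfr4, at chr13:55152640-55168759, measured 18.0 to 21.0 CPM in WT livers on oil, 22.0 to 26.5 CPM in WT livers on CCl4, 17.0 to 22.6 CPM in Lcn2-/- livers on oil and 19.0 to 26.0 CPM in Lcn2-/- livers on CCl4. The log2 fold change was 0.24 in WT (95% interval -0.08 to 0.56) and 0.19 in Lcn2-/- (95% interval -0.15 to 0.54). Its sign turned with the scaling, to -0.07 and -0.22 after TMM, so no direction is given for it.

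**Figure D3:**
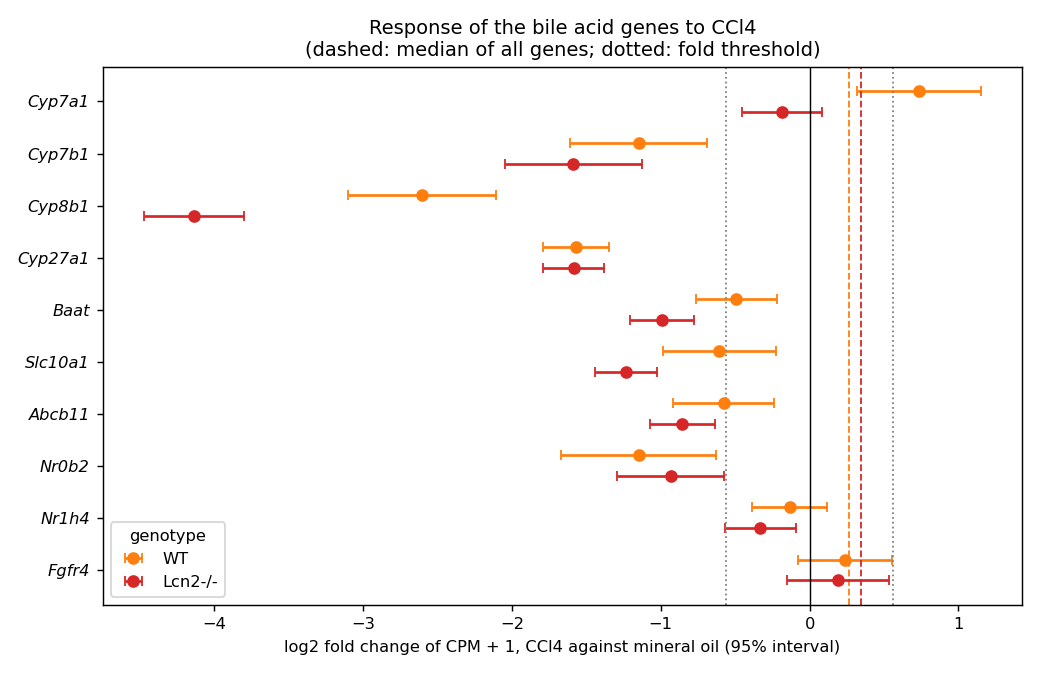
Log2 fold change of CPM + 1 on CCl4 against oil (horizontal) for the 10 genes (vertical), in WT and Lcn2-/-, 3 against 3 libraries each, with 95% intervals from limma. Dashed lines are the medians of all genes, 0.27 and 0.35, and dotted lines the fold threshold of 0.56; Cyp8b1 lies farthest to the left at -2.61 and -4.14, and Cyp7a1 alone is called to the right, in WT.

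The genotypes differed in how far Cyp8b1 fell. In a fit of all 12 libraries, Cyp8b1 fell further on CCl4 in Lcn2-/- than in WT, with a log2 difference of -1.53 (SE 0.34, 95% interval -2.24 to -0.82, adjusted p = 0.025, limma), and -1.61 after TMM (adjusted p = 0.021). It was 1 of the 10 genes called lower for this difference, where 0.816% of 15194 genes were, with 0 called higher, where 1.09% were. The call was lost without Lcn2-/- replicate 1 on oil (adjusted p = 0.052), without Lcn2-/- replicate 2 on oil (adjusted p = 0.078), without WT replicate 2 on oil (adjusted p = 0.078) and without a variance trend (adjusted p = 0.13), with values of -1.56, -1.42, -1.40 and -1.53. Cyp7a1 differed by -0.92 (SE 0.27, adjusted p = 0.096), Slc10a1 by -0.63 (SE 0.23, adjusted p = 0.20) and Baat by -0.50 (SE 0.17, adjusted p = 0.16), none of them called. Cyp27a1 differed by -0.01, with a 95% interval of -0.30 to 0.27.

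Between the genotypes on CCl4, 0 of the 10 genes were called in either direction, where 0.104% of 14445 genes were called higher and 0.194% lower. With unadjusted p-values below 0.05, 1 would be higher and 3 lower. The share of all genes at that threshold was not counted, so nothing is read from these counts. Of the 10 genes edgeR called 0, where it called 13 genes higher and 18 lower in all. DESeq2 called 1, where it called 70 higher and 116 lower in all. The single DESeq2 call was Nr0b2, which was 27.1 to 37.9 CPM in Lcn2-/- against 14.9 to 21.4 CPM in WT livers, without overlap, at a limma log2 difference of 0.70 (SE 0.18, adjusted p = 0.18). Cyp8b1, also without overlap, differed by -1.19 (SE 0.27, adjusted p = 0.12), Cyp7a1 by -0.83 (SE 0.22, adjusted p = 0.20) and Baat by -0.32 (SE 0.10, adjusted p = 0.33).

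On mineral oil, all 10 genes had a fold change at or above 0 in Lcn2-/- against WT and 0 were called, where 1.11% of 14202 genes were called higher and 3.8% lower. With unadjusted p-values below 0.05, 3 would be higher and 0 lower, again without a count of all genes at that threshold. Of the 10 genes edgeR and DESeq2 called 0. In all, edgeR called 191 genes higher and 482 lower, and DESeq2 264 and 678. The median log2 difference of the 10 genes was 0.21, beside -0.03 over all genes. Slc10a1 was 531 to 657 CPM in Lcn2-/- against 345 to 529 CPM in WT livers, which did not overlap by a narrow margin, with a log2 difference of 0.48 (SE 0.15, adjusted p = 0.084, limma). Cyp7b1 differed by 0.58 (SE 0.23, adjusted p = 0.18) and Cyp8b1 by 0.34 (SE 0.13, adjusted p = 0.18), with overlapping libraries. This comparison and those of CCl4 against oil share their oil libraries, so their values are not independent.

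Other measured lists moved beside these genes. Over all genes, 18.5% were called higher and 3.18% lower on CCl4 in WT, and 29.6% and 4.51% in Lcn2-/-. For the difference of the response, 1.09% were called higher and 0.816% lower. Of 10 pericentral genes, those of hepatocytes around the central vein, 5 were called lower and 1 higher on CCl4 in WT, and 6 lower and 0 higher in Lcn2-/-, and after TMM 7 lower and 0 higher in each genotype. Their summed level went from 4281 to 5002 CPM in WT livers and 6266 to 7627 CPM in Lcn2-/- livers on oil to 1128 to 1329 and 1306 to 1485 CPM on CCl4. Glul, glutamine synthetase, went from 563 to 824 CPM on oil to 49.7 to 70.4 CPM on CCl4, and Cyp2e1 from 2125 to 4145 CPM to 196 to 378 CPM. Hepatocyte markers did not move in this way, with 1 of 7 called lower in WT and 0 of 7 in Lcn2-/- (1 in each after TMM). Periportal genes, those of hepatocytes near the portal vein, were called higher in 4 of 10 and lower in 1 in WT, and higher in 1 and lower in 4 in Lcn2-/-. After TMM, 1 was higher and 1 lower in WT, and 0 were higher and 7 lower in Lcn2-/-. With either scaling, 4 of 10 had a response to CCl4 that was called lower in Lcn2-/- than in WT. They summed to 5792 to 7510 CPM on oil, and to 7518 to 9285 CPM in WT and 6065 to 6821 CPM in Lcn2-/- livers on CCl4. Stellate cell markers were called higher in 5 of 8 genes in WT and in 6 of 8 in Lcn2-/- (after TMM 4 and 6, with 1 called lower in Lcn2-/-). Leukocyte markers were called higher in 1 of 8 and lower in 2 in WT, and higher in 7 and lower in 0 in Lcn2-/- (after TMM 1 higher and 2 lower, and 5 higher), and 3 of 8 had a response that was called higher in Lcn2-/- than in WT. Of the acute phase genes, 7 of 11 were called lower and 0 higher in WT, and 3 of 9 higher and 0 lower in Lcn2-/-, and 4 of 9 had a response that was called higher in Lcn2-/-. After TMM, 8 acute phase genes were lower in WT, 1 was higher and 1 lower in Lcn2-/-, and 3 differed in the response. The part of these cells or zones in the bile acid genes was not tested.

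On oil the genotypes also differed in genes of the daily clock, of inflammation, of leukocytes and of other cells and zones. Of 15 clock genes, 5 were called higher in Lcn2-/- on oil, among them Nr1d1 at 48.1 to 55.3 CPM against 11.0 to 13.1 CPM, and Dbp at 1.72 to 22.2 CPM against 0.361 to 0.480 CPM. Leukocyte markers were called lower in 8 of 8 genes, stellate cell markers in 3 of 8 and bile duct cell markers in 3 of 7, with 0 higher. Pericentral genes were called higher in 2 of 10 and lower in 0, and 9 had a fold change above 0. Their sums were 4281 to 5002 CPM in WT and 6266 to 7627 CPM in Lcn2-/-. Periportal genes were called higher in 1 of 10 and lower in 1, and hepatocyte markers in 0 of 7. Over all genes, 1.11% were called higher and 3.8% lower on oil. Acute phase genes, a list that holds Lcn2 itself, were called lower in 7 of 10, and Saa1, a serum amyloid gene of inflamed liver, ran from 1050 to 18135 CPM within the WT oil group. On CCl4 against oil, 4 of the 15 clock genes were called higher and 2 lower in WT, where 18.5% and 3.18% of all genes were. In Lcn2-/-, 5 were called higher and 4 lower, where 29.6% and 4.51% of all genes were. After TMM these counts were 3 and 4 in WT, and 1 and 6 in Lcn2-/-. Of all genes, 1199 were then higher and 1080 lower in WT, and 1962 and 1672 in Lcn2-/-. In the difference of the response, 0 clock genes were called higher and 2 lower, and 3 lower after TMM. The shares of all genes there were 1.09% and 0.816%, and after TMM 137 genes were higher and 193 lower. The hour of sampling is not given. The part of clock, inflammation, cells and zones was not tested, in the values on oil, on CCl4 or in the difference of the response.

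**Figure D4:**
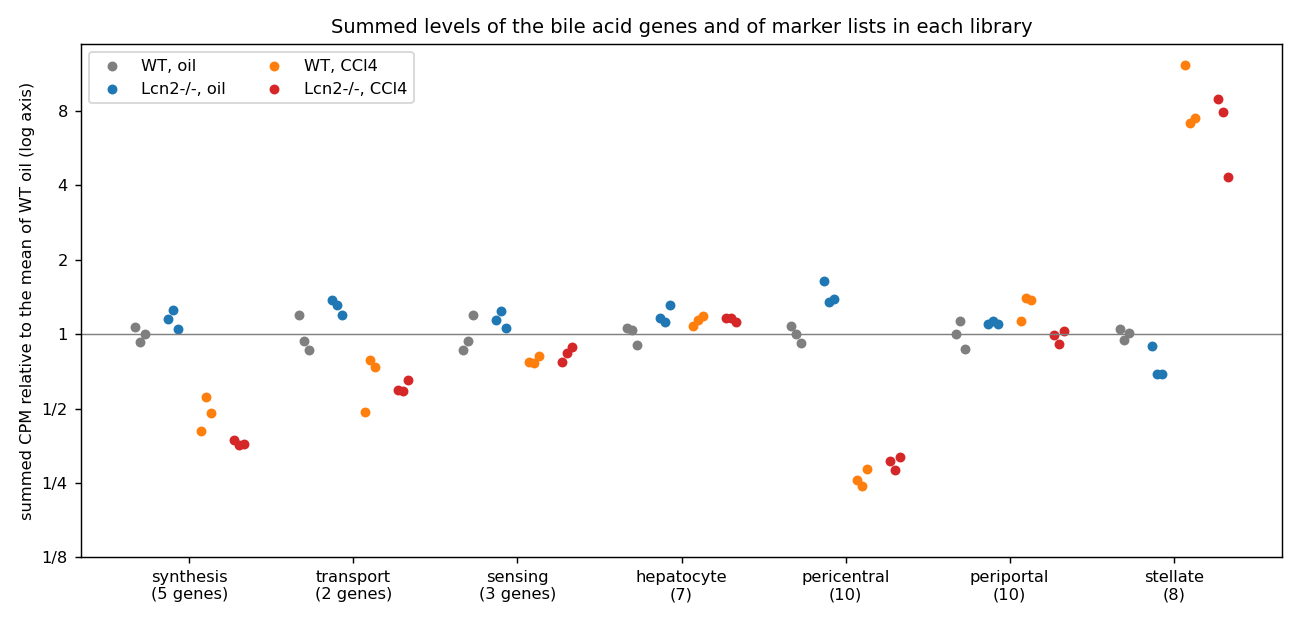
Summed CPM of the 5 synthesis, 2 transport and 3 sensing genes and of 4 marker lists in each library, relative to the mean of the 3 WT oil libraries (log axis), coloured by group. The bile acid sums and the pericentral sum are lower on CCl4, the hepatocyte sum stays between 75098 and 109354 CPM, and the stellate sum is higher on CCl4 in every library.

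Further genes of the pathway, from lists of 17 synthesis, 17 transport and 22 sensing genes, were split. Of their 53 measured genes, 9 were called higher and 7 lower on CCl4 in WT, with a median log2 fold change of 0.11 beside 0.27 over all genes, and after TMM 3 were higher and 10 lower. Over all genes, 18.5% were called higher and 3.18% lower, so the further genes called higher were about as frequent as in the whole table. In Lcn2-/-, 5 of 51 were called higher and 11 lower, with a median of -0.16 beside 0.35, and after TMM 0 were higher and 24 lower. Over all genes, 29.6% and 4.51% were called there.

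In synthesis, 1 of 17 genes was called higher and 3 lower in WT, where 18.5% and 3.18% of all genes were. In Lcn2-/-, 1 was called higher and 5 lower, where 29.6% and 4.51% of all genes were. After TMM these counts were 1 and 4 in WT, and 0 and 10 in Lcn2-/-. Sult2a8, a bile acid sulfotransferase of mouse liver, fell from 207 to 436 CPM to 38.0 to 74.8 CPM in WT and from 456 to 525 CPM to 66.3 to 75.7 CPM in Lcn2-/-, with log2 fold changes of -2.47 and -2.79. Slc27a5, the ligase that activates bile acids for conjugation, changed by -0.87 and -1.50, and Hsd3b7, which acts on the ring after 7-hydroxylation, by -0.82 and -0.75. Akr1d1, the 5β-reductase of the ring, at -1.18, and Slc27a2, a ligase of side chain intermediates, at -0.81, were called lower in Lcn2-/-. Cyp39a1, an oxysterol 7-hydroxylase, was higher, from 6.73 to 12.7 CPM to 19.9 to 26.6 CPM in WT (log2 fold change 1.28) and from 9.67 to 20.3 CPM to 23.3 to 24.3 CPM in Lcn2-/- (0.70), and the Lcn2-/- call was lost after TMM.

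In transport, 6 of 16 genes were called higher and 2 lower in WT, where 18.5% and 3.18% of all genes were. In Lcn2-/-, 3 were called higher and 5 lower, where 29.6% and 4.51% of all genes were. After TMM these counts were 2 and 4 in WT, and 0 and 8 in Lcn2-/-. Slco1a1, an uptake carrier of organic anions, fell from 3.85 to 10.6 CPM to at most 0.773 CPM in WT and from 14.9 to 53.4 CPM to at most 1.11 CPM in Lcn2-/-. Slco1b2, the main uptake carrier of unconjugated bile acids in mouse, changed by -0.87 and -1.40. Slco1a4 was called higher in WT, at 0.95, and lower in Lcn2-/-, at -0.61.

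The other transport genes called higher in WT were Abcb1a (1.45), Slc10a2 (0.83), Abcc4 (0.80), Abcg2 (0.59) and Abcc2 (0.57), the export pumps of drugs, conjugates and bile acids together with the apical uptake carrier Slc10a2. Of these only Abcb1a and, of the genes named before, Slco1a4 were still called after TMM. In Lcn2-/- the genes called higher were Abcc4 (1.11), Slc10a2 (1.07) and Slc51b (0.86), none of them after TMM, and Abcc3 (-0.90) and Abcg8 (-0.62) were called lower. Slc10a2 is also on the list of bile duct cell markers. Of these, 4 of 8 were called higher and 1 lower in WT, where 18.5% and 3.18% of all genes were. In Lcn2-/-, 4 of 7 were higher and 0 lower, where 29.6% and 4.51% of all genes were (after TMM 3 and 1, and 3 and 0). In WT 6 of the 8 markers had a fold change above 0 and 2 below, and in Lcn2-/- all 7 were above 0. The duct keratin Krt19 was lower in WT, against most of the list, with a highest value on CCl4 of 6.58 CPM and a lowest on oil of 8.41 CPM. It was higher in Lcn2-/-, with a highest value on oil of 1.49 CPM and CCl4 values up to 6.59 CPM. In WT mean Krt7 also went down, from 4.73 to 2.88 CPM, while Epcam went up from 1.22 to 5.92 CPM and Sox9 from 16.6 to 37.7 CPM.

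In sensing, 2 of 20 genes were called higher and 2 lower in WT, where 18.5% and 3.18% of all genes were. In Lcn2-/-, 1 of 18 was called in each direction, where 29.6% and 4.51% of all genes were. After TMM, 0 were higher and 2 lower in WT, and 0 higher and 6 lower in Lcn2-/-, among them Nr1i3. Nr1i3 (CAR), a nuclear receptor of foreign compounds and bile acids, fell from 65.4 to 74.7 CPM to 25.2 to 49.3 CPM in WT and from 117 to 140 CPM to 42.9 to 58.2 CPM in Lcn2-/-, at -0.85 and -1.27. Fgfr1 was called higher in both, at 0.77 and 1.0, and Prox1, a corepressor in hepatocytes, in WT at 0.71, none of these after TMM. Fgf21, a hormone of the fasted liver, was called lower in WT at -0.98, with 1 oil library at 3.46 CPM and the other two at 0.840 and 0.841 CPM.

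In all, 6 further genes had a CCl4 response that was lower in Lcn2-/- than in WT, and 0 one that was higher, of 51 measured. Over all 15194 genes, 0.816% were called lower and 1.09% higher for this difference. The 6 genes were Slco1a4 (log2 difference -1.56, SE 0.35, adjusted p = 0.027, limma), Akr1d1 (-1.02), Abcg8 (-0.87), Abcd3 (-0.86), the peroxisomal carrier of bile acid intermediates, Abcc3 (-0.68) and Slc27a5 (-0.64). Akr1d1 was also the 1 further gene called between the genotypes on CCl4, at 89.4 to 108 CPM in Lcn2-/- against 133 to 170 CPM in WT livers (-0.65, adjusted p = 0.044), a call that was lost after TMM. Over all genes, 0.194% were called lower there. On oil, 4 of 50 further genes were called higher in Lcn2-/- and 0 lower, where 1.11% and 3.8% of all genes were: Slco1a1 (2.02), Slco1a4 (1.17), Nr1i3 (0.83) and Abcg8 (0.63). Mean Slco1a4 was 108 CPM in Lcn2-/- against 47.5 CPM in WT on oil, and 72.2 against 93.0 CPM on CCl4. For Abcg8 the means were 49.0 against 31.4 CPM on oil, and 31.8 against 37.4 CPM on CCl4. The falls of Slco1a1, Slco1a4, Nr1i3 and Abcg8 on CCl4 in Lcn2-/- were measured from the same oil libraries. So were the differences of the response for Slco1a4 and Abcg8, and none of these values are independent of those on oil.

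**Figure D5:**
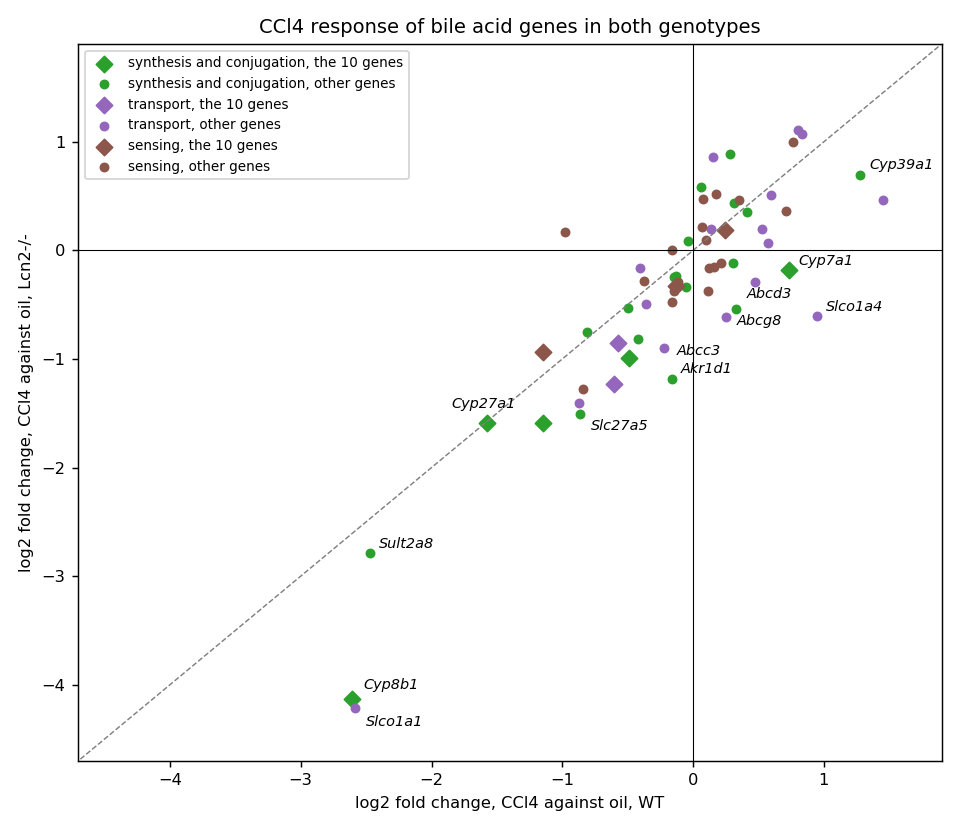
Log2 fold change on CCl4 against oil in Lcn2-/- (vertical) against that in WT (horizontal) for the 10 genes (diamonds) and the further pathway genes measured in both (circles); the dashed line marks equal responses. Cyp8b1 and Slco1a1 lie farthest below zero on both axes, Cyp27a1 lies on the line at -1.57 and -1.59, and Slco1a4 lies below it at 0.95 and -0.61.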

How the data were processed

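RNA-seq values of 12 liver libraries were used. The authors ran the nf-core pipeline with STAR on mm10, and counting is given as Salmon in the methods and as featureCounts in the processing notes. The methods name both a 3′ end kit (rapid MACE) and a stranded total RNA kit, so the use of strand is not known here. The authors deposited CPM, reads of a gene per 1000000 reads in genes, without size factors. In all 12 libraries 100% of values were whole reads within 0.001 of a read. Columns of the authors' own comparisons (DESeq2 1.30.0 fold changes, statistics and p-values) and their enrichment tables were not used, and 0 value columns were left unmapped.

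Each comparison of 3 against 3 libraries was fitted on log2(CPM + 1) with limma 3.58.1 in R 4.3.3, with a variance trend and Benjamini-Hochberg adjustment over all genes of its table, and the difference of the CCl4 response in all 12 libraries over 15194 genes. A gene was called with a log2 fold change beyond 0.56 (1.47-fold) and an adjusted p of 0.05 or less. Alternatives were pseudocounts of 0.5 and 5, a mean of at least 1 CPM, DESeq2 size factors or TMM, edgeR 4.0.16 and DESeq2 1.42.0 on the recovered reads, no variance trend, other fold thresholds, each library left out, the replicate block and 1 fit of all libraries. The tests were also run on simulated reads, with the same spread setting for every gene and as many genes raised as lowered. That run does not cover the shift between scalings or the differing spread of real genes. Gene positions are from GENCODE M21 on GRCm38, the assembly of mm10. All 10 genes are named, and of each further pathway list up to 8 called genes per direction. Of the companion lists, up to the first 4 genes of a list are named, and Lrat and Reln were named after their values were seen. The genes and lists were chosen with earlier results of these data known.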

Additional observations from a re-analysis of the deposited data

Results flagged for a closer look

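The response of Cyp8b1 to CCl4 differed between the genotypes in the interaction test, by -1.53 on the log2 scale (adjusted p = 0.025, limma, over 15194 genes). The fall was 5.82-fold in WT and 18.2-fold in Lcn2-/-, with no overlap between oil and CCl4 libraries in either genotype. The call was lost without Lcn2-/- replicate 1 or 2 on oil, without WT replicate 2 on oil and without a variance trend. Groups of 3 libraries are too small for a test of single libraries that stand apart.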

How the results depend on the processing

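Of the 10 genes, 7 were called on CCl4 in WT, and 4 without a variance trend and 4 at a log2 fold change over 1. With each library left out the count ran from 5 to 8. In all, 2931 genes were higher and 504 lower, 2810 and 448 without a variance trend, and 1072 and 229 over 1. With a library left out, 2032 to 2788 genes were higher and 400 to 476 lower. In Lcn2-/- 7 of the 10 were called, 4 at a log2 fold change over 1, and 7 with any library left out. There 4631 genes were higher and 705 lower in all, and 1968 and 275 over 1. With a library left out, 3968 to 4584 genes were higher and 605 to 700 lower. Between the genotypes on oil the count of the 10 was 0, and 0 to 1 with a library left out (Slc10a1 without WT replicate 1, Nr0b2 without WT replicate 3, Cyp7b1 without Lcn2-/- replicate 3). In all, 158 genes were higher and 539 lower, and 84 to 204 and 253 to 497 with a library left out. Between the genotypes on CCl4 the count of the 10 was 0, 1 with DESeq2 (Nr0b2) and 1 with 1 fit of all 12 libraries (Cyp8b1). It was 0 to 1 with a library left out (Cyp7a1 without WT replicate 1, Cyp8b1 without WT replicate 3). In all, 15 genes were higher and 28 lower, 70 and 116 with DESeq2, and 14 and 31 with 1 fit. Without WT replicate 1, 51 genes were higher and 46 lower, and without WT replicate 3, 11 and 18. For the difference of the response the count of the 10 was 1, 3 with DESeq2 (Cyp8b1, Baat and Slc10a1) and 0 without a variance trend. It was 0 to 3 with a library left out. In all, 165 genes were higher and 124 lower, 372 and 350 with DESeq2, and 45 and 25 without a variance trend. With a library left out, 69 to 295 genes were higher and 67 to 152 lower, so the count moved with that of all genes. With the replicate block, 1 of the 10 genes was called between the genotypes on CCl4, Cyp8b1 at -1.19 (adjusted p = 0.0037, limma). The block also raised the calls over all genes there, from 15 higher and 28 lower to 33 and 43. The counts of 7, 7, 0 and 1 elsewhere did not move. All genes called there were 2850 higher and 498 lower, 4549 and 698, 165 and 483, and 144 and 112. Same-numbered libraries correlated at -0.14 to 0.17, so the numbers are not taken as pairs. Signs turned for Fgfr4 on CCl4, in WT to -0.085 with size factors, -0.073 with TMM, -0.077 with edgeR and -0.087 with DESeq2, and in Lcn2-/- to -0.22, -0.22, -0.23 and -0.23. With a library left out, signs turned between the genotypes on oil for Fgfr4 (-0.086 to 0.11), on CCl4 for Fgfr4 (-0.14 to 0.078), Cyp7b1 (-0.030 to 0.25), Slc10a1 (-0.35 to 0.0040) and Abcb11 (-0.27 to 0.075), and in the difference of the response for Fgfr4 (-0.16 to 0.075), Cyp27a1 (-0.091 to 0.064) and Nr0b2 (-0.11 to 0.52), none of them called. The causes were not tested. Depth did not set a limit for the 10 genes. Among the other named genes, Slco1a1 on CCl4, Fgf21, Slc51b, Dbp, Krt19, Krt7 and Epcam rest on few reads in at least 1 group. Dbp had 5, 4 and 3 reads in WT on oil, and Slc51b had 7, 10 and 8 in Lcn2-/- on oil.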
